A study of Homo sapiens with 9 samples.

Results

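The genes described here encode the glutathione, thioredoxin and NADPH systems that detoxify peroxides and quinones. They are 40 of the 60675 genes in the table, chosen by name as a fixed list of symbols, and each symbol was matched to 1 Ensembl gene. By role, 16 are widely described as driven by the transcription factor NRF2 (NQO1, SLC7A11, GCLC, GCLM, GSR, TXN, TXNRD1, SRXN1, PRDX1, PGD, TALDO1, TKT, ME1, OSGIN1, ABCC1 and EPHX1). Another 3 encode NRF2 itself and its partners (NFE2L2, KEAP1 and MAFG), and the other 21 are antioxidant enzymes not chosen as NRF2 targets. That division is textbook knowledge and not sharp, since some of the 21 have been called NRF2 targets in other cells.

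The series asks which transcripts change when SW1783, a line from a human astrocytoma, is exposed to herbal medicines. All 9 libraries came from cells kept in L-15 (10% fetal bovine serum) and collected 24 h after treatment. The control was DMSO vehicle (replicates 1 to 3), given as 0.1% in the sample labels and 2% in the series design, which was not settled. The treated groups had a 70% ethanol extract of Poria Cocos, a fungus, or of Atractylodis Rhizoma, a plant rhizome, each at 20, 100 and 500 µg/mL. Each of the 6 treated groups is 1 library, numbered replicate 2, so no treated condition has a replicate of its own. All libraries are of 1 cell line and carry the same batch letter, and no DMSO percentage is given for the treated ones. In the sample descriptions the names of the vehicle samples begin differently from those of the treated samples, and what that stands for is not known here. A difference between these sets cannot be told apart from treatment in any comparison that includes the vehicle level.

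NRF2, encoded by NFE2L2, is held low by KEAP1, which passes it to the ubiquitin ligase CUL3. Electrophiles and oxidants modify cysteines of KEAP1, and NRF2 then builds up, pairs with a small MAF protein such as MAFG and binds antioxidant response elements in the DNA. Its targets import cystine and make glutathione, reduce thioredoxin, and supply the NADPH on which both systems run. In astrocytes this pathway is known for supporting the glutathione supply of neighbouring neurons.

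Library totals ran from 40269708 to 48905602 expected counts, and 24614 to 25705 genes had counts. Levels are given in CPM, with each library's counts divided by its total after scaling by the trimmed mean of M values (TMM). Counts of vehicle libraries differed from each other by a chi-square per degree of freedom of 2.46 to 3.44, above sampling noise, and each treated library lay 14.0 to 31.4 from them. The treated libraries stood apart from vehicle along GC content as well: genes called higher in them had a median GC content of 42.4%, genes called lower 55.8% and all tested genes 48.2%. Of 8 astrocyte markers, GFAP, S100B, AQP4, ALDH1L1 and SLC1A2 were at or below 0.34 CPM in every library, while GJA1 (256 CPM in vehicle), SOX9 (83.8 CPM) and SLC1A3 (21.4 CPM) were present. Mesenchymal markers summed to 15500 to 18500 CPM over the 9 libraries. VIM, FN1 and COL1A1 were the highest of them (5990, 5690 and 4250 CPM in vehicle), and PDGFRB and COL3A1 the lowest (56.7 and 30.1 CPM). In bulk RNA, a change in the share of cells with a transcript and a change in its amount per cell cannot be told apart.

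A trend is the log2 change per 5-fold dose step over vehicle, 20, 100 and 500 µg/mL, fitted for both extracts together on all 9 libraries and given ± SE. The slope within the treated libraries is the same change over the 6 treated libraries alone, as the mean of both extracts, and does not use the vehicle level. Adjusted p-values are from edgeR's quasi-likelihood test with Benjamini-Hochberg adjustment over 18356 genes, with 0.05 as the threshold. No treated condition has a replicate. The error behind these p-values therefore joins the spread among the 3 vehicle libraries with departures from the fitted dose line. For treated against vehicle libraries the departures are from the mean treated level. The error of the slope within the treated libraries thus also draws on the vehicle libraries. Nothing in the labels tells whether the samples were separate cultures, so part of this spread may be technical. Both trends lean on the same 3 vehicle libraries, so each is given on its own. All 40 genes passed the filter on low counts, which needed at least 10 counts, and their lowest count in any library was 470.

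The NRF2-driven genes rose in part with either extract, and none of them fell. With Poria, 7 of the 16 rose, against 9.16% of all tested genes, and the median trend was 0.07 against 0.00 over all tested genes. With Atractylodis, 9 of 16 rose, against 8.49% of all tested genes, with a median of 0.08. The other 21 enzymes went both ways. With Poria 1 of them rose and 7 fell (11.6% of all tested genes fell), and with Atractylodis 6 rose and 4 fell (10.5% of all tested genes fell). Their medians were -0.02 and 0.01. Of the 3 regulators, KEAP1 fell with Poria, and 0 passed with Atractylodis. These counts leaned on the top doses. Without the Poria library at 500 µg/mL 3 of the 40 genes rose with Poria in place of 8. Without the Atractylodis library at 500 µg/mL 2 rose with Atractylodis in place of 15. Calls also became fewer over all tested genes, where 1068 rose with Poria in place of 1681 and 403 with Atractylodis in place of 1559. Without vehicle replicate 1 or vehicle replicate 3 the Atractylodis count was 9, and over all tested genes it was 881 and 902. At an unadjusted p under 0.05 edgeR also gave 0 NRF2-driven genes lower in either trend and 0 regulators in the Atractylodis trend, and DESeq2 with adjusted p gave 0 for each of these.

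Within the treated libraries, 9 of the 16 NRF2-driven genes rose with the dose and 0 fell, against 2.3% of all tested genes that rose and 3.52% that fell. All 16 slopes were positive, with a median of 0.14. Of the other 21 enzymes 0 rose and 2 fell (GPX1 and TXNRD2), 8 slopes were positive, and the median was -0.01. Taken by extract, 6 of the 16 rose within the Poria libraries and 9 within the Atractylodis libraries (1.2% and 1.5% of all tested genes), and of the other 21 enzymes 2 and 1 fell (1.25% and 2.54%). At an unadjusted p under 0.05 edgeR gave 0 NRF2-driven genes lower and 2 of the other enzymes higher (MGST1 and SOD2), and DESeq2 with adjusted p gave 0 of each. Without the Poria library at 500 µg/mL, 3 members still rose within the treated libraries (NQO1, SLC7A11 and TXNRD1) in place of 10, and 0 fell. Over all tested genes 26 then rose and 42 fell, in place of 422 and 646.

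**Figure D1:**
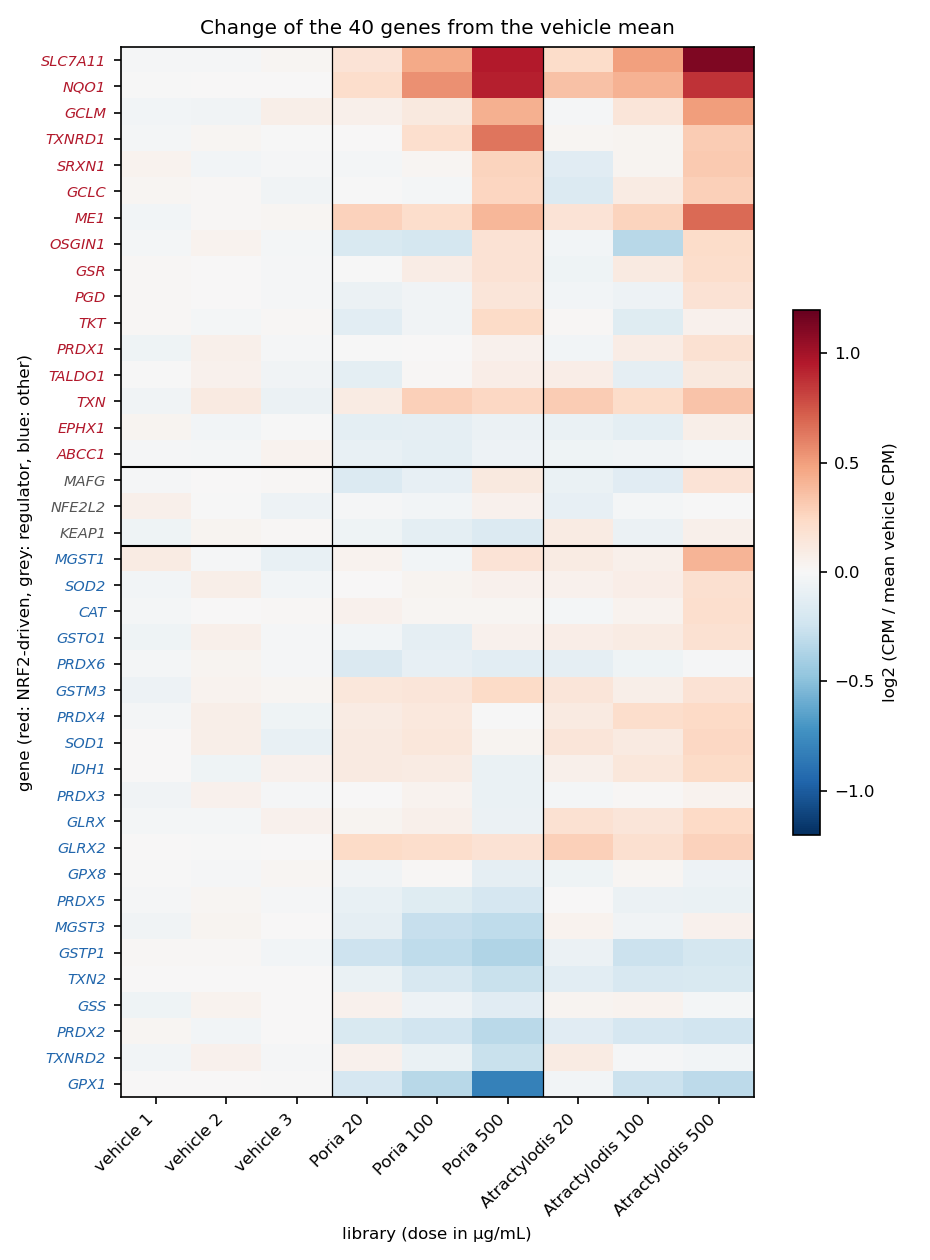
Each cell is the log2 ratio of a gene's CPM in 1 library to its mean over the 3 vehicle libraries, with genes in rows by role and the 9 libraries in columns, red for higher and blue for lower. SLC7A11 and NQO1 are reddest in both libraries at 500 µg/mL, and GPX1 is bluest in the Poria library at 500 µg/mL.

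Summed over the 16 genes, the NRF2-driven transcripts stood at 2579, 2615 and 2585 CPM in the vehicle libraries. They were at 2553, 2747 and 3198 CPM with 20, 100 and 500 µg/mL of Poria and at 2663, 2668 and 3131 CPM with Atractylodis. The top dose of each extract lay far above vehicle. Poria at 100 µg/mL and Atractylodis at 20 and 100 µg/mL lay above all 3 vehicle libraries by less, and Poria at 20 µg/mL lay below all 3. In such a sum the most abundant genes weigh most. The other 21 enzymes summed to 1960, 2004 and 1953 CPM in vehicle, lay below that with Poria (1889, 1861 and 1744 CPM), and overlapped it with Atractylodis (1965, 1926 and 1974 CPM).

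Sequence at the start sites was searched for the core letters of the antioxidant response element, TGACNNNGC, on both strands. RefSeq promoter entries (GRCh38.p14, 250 bases before to 50 after the annotated start) were matched for 32 of the 40 genes. Only the first full-length entry of each gene was searched, so a match or its absence describes that start alone. The genes without an entry were ABCC1, GSR, GSS, PRDX1, PRDX6, SLC7A11, SOD1 and TXN2. The letters occurred in 4 of 12 NRF2-driven promoters, in 0 of 3 regulator promoters and in 2 of 17 others, against 13.6% of all 27305 promoters searched (3702 of them). All 4 NRF2-driven genes with a match (GCLM, ME1, PGD and TXNRD1) rose within the treated libraries. The other 2 were GSTO1, whose slope there was 0.05, and GSTP1, at -0.06, and neither passed the test. A match is a description of letters and not a binding site, and the windows of NQO1, GCLC and SRXN1, which also rose, held none. The 250 bases before the start are shown 5′ to 3′ on the gene's own strand for 3 of the genes that rose, with each match that lies wholly before the start in capitals. They lie at chr6:83431052-83431301 (ME1, minus strand), chr12:104215529-104215778 (TXNRD1, plus strand) and chr1:93909431-93909680 (GCLM, minus strand).
ME1: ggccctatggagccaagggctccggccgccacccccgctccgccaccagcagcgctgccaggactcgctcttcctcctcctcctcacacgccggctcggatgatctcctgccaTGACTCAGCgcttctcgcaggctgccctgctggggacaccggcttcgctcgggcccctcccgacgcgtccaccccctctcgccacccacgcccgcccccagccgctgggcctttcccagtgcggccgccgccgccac
TXNRD1: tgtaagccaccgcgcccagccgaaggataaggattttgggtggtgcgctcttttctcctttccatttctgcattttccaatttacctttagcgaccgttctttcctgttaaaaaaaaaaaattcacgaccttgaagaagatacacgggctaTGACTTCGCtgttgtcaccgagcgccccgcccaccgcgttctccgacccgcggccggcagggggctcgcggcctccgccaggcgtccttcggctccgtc
GCLM: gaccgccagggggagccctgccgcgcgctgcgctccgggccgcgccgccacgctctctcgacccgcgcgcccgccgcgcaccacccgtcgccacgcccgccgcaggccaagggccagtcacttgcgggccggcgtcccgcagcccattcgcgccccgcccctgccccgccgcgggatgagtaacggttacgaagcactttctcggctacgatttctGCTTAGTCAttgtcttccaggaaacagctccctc
Counted from the start, with negative positions before it, the ME1 match began at -137 and read TGACTCAGC, and that of TXNRD1 began at -99 and read TGACTTCGC. Both windows also held a match on the opposite strand that reached past the start and is not in capitals: GCACCGTCA at 11 in ME1 and GCTCCGTCA at -8, running over the start, in TXNRD1. In GCLM the letters were on the opposite strand, where GCTTAGTCA began at -34. GSTP1 held TGACTCAGC, the same 9 letters as ME1, at -66. In the Poria trend ME1 rose and GSTP1 fell, so those letters were shared by genes that moved in opposite directions.

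The steepest slope of the 40 genes belonged to cystine import. SLC7A11 (ENSG00000151012, chromosome 4, 138164097 to 138242349, minus strand, GRCh38), the subunit of the transporter that exchanges glutamate for cystine, stood at 94.6, 94.3 and 97.1 CPM in vehicle. It was at 107, 131 and 184 CPM with rising doses of Poria and at 111, 134 and 207 CPM with Atractylodis, so that all treated libraries lay above all vehicle libraries and each dose above the one before. The trends were 0.31 ± 0.03 and 0.36 ± 0.03 (adjusted p = 0.00015 and 0.00014), and the slope within the treated libraries, 0.42 ± 0.03 (1.2e-05), was higher than either. Once GC content (35.4% for SLC7A11) and transcript length were corrected for, the trends were 0.26 and 0.30 (adjusted p = 0.0086 and 0.0052). The slope within the treated libraries was then 0.39 (0.018). At 500 µg/mL SLC7A11 was 1.93-fold its vehicle mean with Poria and 2.17-fold with Atractylodis. Such a separation from vehicle was shared by 3 of the 16 NRF2-driven genes (SLC7A11, NQO1 and ME1), against 12.4% of all tested genes.

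Both subunits of glutamate-cysteine ligase, the enzyme that limits glutathione synthesis, rose within the treated libraries. GCLM (ENSG00000023909, chromosome 1, 93885205 to 93909456, minus strand), its modifier subunit, was at 83.7, 83.1 and 89.9 CPM in vehicle. It was at 89.1, 92.7 and 115 CPM with Poria and at 84.7, 94.9 and 121 CPM with Atractylodis. The libraries at 20 µg/mL fell inside the vehicle range and those at 500 µg/mL far above it. GCLM had trends of 0.14 ± 0.03 and 0.15 ± 0.03 (adjusted p = 0.0051 and 0.0035) and a slope of 0.23 ± 0.03 within the treated libraries (0.00013). Its trend calls ended once GC content and transcript length were corrected for (0.10 and 0.11, adjusted p = 0.12 and 0.087), and the slope within the treated libraries did not (0.21, 0.031). Without Poria at 500 µg/mL the call within the treated libraries (0.16, adjusted p = 0.05) and the Poria trend (0.08, 0.23) ended, and without Atractylodis at 500 µg/mL the Atractylodis trend did (0.08, 0.20).

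GCLC (ENSG00000001084, chromosome 6, 53497341 to 53616970, minus strand), the catalytic subunit, was at 38.7, 38.6 and 37.1 CPM in vehicle, 38.1, 37.5 and 45.5 CPM with Poria and 34.0, 40.7 and 46.6 CPM with Atractylodis. Only the libraries at 500 µg/mL lay clearly above vehicle, and Atractylodis at 20 µg/mL lay below it. GCLC had a slope of 0.18 ± 0.03 within the treated libraries (adjusted p = 0.00036), while the trends were 0.08 ± 0.03 (0.076) for Poria and 0.09 ± 0.03 (0.045) for Atractylodis. The Atractylodis trend of GCLC ended under 9 alternatives, among them leaving out any vehicle library (0.09 to 0.10, adjusted p = 0.05 to 0.091). Its call within the treated libraries ended without Poria at 500 µg/mL (0.10, adjusted p = 0.31) and without Atractylodis at 20 µg/mL (0.16, 0.064). GSS, which encodes glutathione synthetase, the second enzyme of the route, ranged from 77.5 to 82.4 CPM in vehicle and from 72.8 to 83.1 CPM in the treated libraries. No comparison called GSS, which within the treated libraries had a slope of -0.06 ± 0.02 (adjusted p = 0.075). GSR, which encodes the reductase that returns oxidised glutathione to its reduced form with NADPH, was at 61.5, 61.4 and 60.3 CPM in vehicle, 61.0, 64.9 and 69.0 CPM with Poria and 58.8, 65.7 and 70.7 CPM with Atractylodis. The 4 libraries at 100 and 500 µg/mL lay above all vehicle libraries. GSR rose by small steps, with trends of 0.06 ± 0.02 and 0.07 ± 0.02 (adjusted p = 0.021 and 0.014) and a slope of 0.11 ± 0.02 within the treated libraries (0.0025). Without Poria at 500 µg/mL the GSR values were 0.05 (adjusted p = 0.26) for the Poria trend and 0.11 (0.17) within the treated libraries, and without Atractylodis at 500 µg/mL the Atractylodis trend was 0.05 (0.37). The call within the treated libraries also ended without the library at 20 µg/mL of Poria (0.11, 0.11) or Atractylodis (0.10, 0.14).

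NQO1 (ENSG00000181019, chromosome 16, 69706996 to 69726951, minus strand), which reduces quinones with NADPH or NADH, was next in size. Its vehicle libraries were almost equal at 129, 130 and 130 CPM. With Poria NQO1 was at 150, 190 and 247 CPM, and with Atractylodis at 165, 173 and 237 CPM, so that no treated library overlapped vehicle. Within the treated libraries its slope was 0.36 ± 0.04 for Poria alone and 0.26 ± 0.04 for Atractylodis alone (adjusted p = 0.00046 and 0.0025). The mean of both was 0.31 ± 0.03 (adjusted p = 4.4e-05). The call of NQO1 within the treated libraries was kept under each alternative tried, including each library left out. Although every treated library was higher, the step between all treated and all vehicle libraries, 0.58 ± 0.18, did not pass (adjusted p = 0.052) in a comparison that counts the rise with dose as scatter.

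The thioredoxin system split by gene. TXNRD1 (ENSG00000198431, chromosome 12, 104215779 to 104350305, plus strand), the cytosolic thioredoxin reductase, a selenoprotein that uses NADPH, was at 291, 301 and 294 CPM in vehicle. It was at 296, 339 and 460 CPM with Poria and at 301, 302 and 364 CPM with Atractylodis. Both libraries at 20 µg/mL sat at the vehicle level, and the Poria library at 500 µg/mL was 1.56-fold the vehicle mean, against 1.23-fold for Atractylodis. Over the treated libraries TXNRD1 had a slope of 0.23 ± 0.02 (adjusted p = 7.9e-05). The Poria trend was 0.19 ± 0.03 (0.0014) and that of Atractylodis 0.10 ± 0.03 (0.049). Their difference, 0.10 ± 0.03, did not pass (0.25). Without Poria at 500 µg/mL the Poria trend of TXNRD1 was 0.10 (0.043). The Atractylodis trend of TXNRD1 lay so near the threshold that it ended under 8 alternatives, for example with the GC correction (0.08, adjusted p = 0.17), without vehicle replicate 1 (0.10, 0.089) and without Atractylodis at 500 µg/mL (0.04, 0.63).

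SRXN1, which encodes sulfiredoxin, the enzyme that restores overoxidised peroxiredoxins, was at 98.4, 93.5 and 94.4 CPM in vehicle, 94.2, 96.8 and 115 CPM with Poria and 87.1, 97.4 and 119 CPM with Atractylodis. Only the libraries at 500 µg/mL stood above vehicle. SRXN1 had a slope of 0.19 ± 0.02 within the treated libraries (adjusted p = 3.2e-05), and neither trend from vehicle passed (0.09 ± 0.03 for each, 0.068 and 0.056), though both did with the GC correction (0.11 and 0.12, 0.027 and 0.024). Without Poria at 500 µg/mL the SRXN1 slope was 0.13 (adjusted p = 0.075). TXN, the cytosolic thioredoxin that reduces disulfides in other proteins, had another shape. TXN was at 177, 196 and 174 CPM in vehicle, 195, 223 and 217 CPM with Poria and 225, 212 and 231 CPM with Atractylodis, with 5 treated libraries above vehicle and no order among the doses. TXN rose between vehicle and treated libraries by 0.25 ± 0.05 (adjusted p = 0.0013). It was 1 of 2 NRF2-driven genes that did (with ME1), against 12.0% of all tested genes, while the slope within the treated libraries was 0.05 ± 0.03 (0.47). The TXN trends, 0.09 ± 0.03 and 0.11 ± 0.03 (adjusted p = 0.03 and 0.011), ended without the 500 µg/mL library of the same extract (0.12 and 0.13, 0.087 and 0.086), and that of Poria also without its 100 µg/mL library (0.07, 0.093) or vehicle replicate 1 or 3 (0.08 and 0.07, 0.078 and 0.076).

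The peroxiredoxins, thiol enzymes that reduce peroxides with electrons from thioredoxin, did not move as a block. PRDX1, the most abundant member per kilobase of its longest transcript in vehicle (318 CPM per kb), was at 380, 411 and 388 CPM in vehicle, 392, 395 and 406 CPM with Poria and 385, 417 and 445 CPM with Atractylodis. PRDX1 rose with Atractylodis (0.06 ± 0.02, adjusted p = 0.032) and not with Poria (0.02 ± 0.02, 0.50; 0.05 and 0.042 with the GC correction), and the difference between the trends did not pass (-0.04 ± 0.02, 0.43). The Atractylodis call of PRDX1 ended without the libraries at 100 or 500 µg/mL (0.06 and 0.04, adjusted p = 0.069 and 0.49) or vehicle replicate 1 or 3 (0.05 and 0.06, 0.11 and 0.081). PRDX2, another cytosolic member of this family, went down. PRDX2 was at 148, 142 and 146 CPM in vehicle, 128, 124 and 116 CPM with Poria and 132, 126 and 124 CPM with Atractylodis, with all treated libraries below vehicle and lower at each dose. Such a separation below vehicle was found in 4 of the 21 other enzymes (PRDX2, GPX1, GSTP1 and TXN2), against 13.7% of all tested genes. The step to the treated libraries was -0.22 ± 0.04 (adjusted p = 0.00049; -0.14 and 0.0046 with the GC correction), and the slope within them, -0.06 ± 0.02, did not pass (0.076).

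PRDX4, the peroxiredoxin of the endoplasmic reticulum, was at 147, 157 and 144 CPM in vehicle, 160, 163 and 149 CPM with Poria and 161, 173 and 176 CPM with Atractylodis, so that only Poria at 500 µg/mL overlapped vehicle. PRDX4 rose with Atractylodis (0.08 ± 0.02, adjusted p = 0.011; 0.10 and 0.076 without the 500 µg/mL library) and in the treated libraries as a whole (0.14 ± 0.05, 0.043). The second call ended without vehicle replicate 1 (0.12, 0.17), vehicle replicate 3 (0.11, 0.21) or any of 4 treated libraries. PRDX5 was at 111, 114 and 111 CPM in vehicle and fell with Poria to 105, 101 and 97.2 CPM (-0.07 ± 0.02, adjusted p = 0.0036), while Atractylodis gave 112, 107 and 106 CPM. With the correction for GC content the Poria trend of PRDX5 was -0.01 (adjusted p = 0.81). The mitochondrial PRDX3 (101 to 111 CPM over all 9 libraries) and PRDX6 (211 to 243 CPM), which works with glutathione, passed no comparison without the correction, with which PRDX6 fell as a step (-0.11, adjusted p = 0.026).

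The mitochondrial thioredoxin pair was lower where it changed. TXN2 (ENSG00000100348, chromosome 22, 36467036 to 36482030, minus strand), the mitochondrial thioredoxin, was at 79.9 CPM in each vehicle library. It was at 75.5, 69.8 and 66.4 CPM with Poria and at 73.0, 70.0 and 70.3 CPM with Atractylodis, all below vehicle. The step to the treated libraries was -0.17 ± 0.04 (adjusted p = 0.0032), and with the GC correction it was -0.10 (0.055). TXNRD2, its reductase and also a selenoprotein, was at 18.7, 19.8 and 18.9 CPM in vehicle, 19.8, 18.1 and 15.9 CPM with Poria and 20.5, 18.9 and 18.7 CPM with Atractylodis. Only Poria at 500 µg/mL lay well below vehicle. TXNRD2 fell with Poria (-0.08 ± 0.03, adjusted p = 0.03) and within the treated libraries (-0.11 ± 0.03, 0.028). Both calls ended without Poria at 500 µg/mL (-0.04 and -0.10, 0.57 and 0.49) and with the GC correction (-0.04 and -0.08, 0.36 and 0.10). The first also ended without vehicle replicate 2 (-0.08, 0.064), and the second without Poria at 20 µg/mL (-0.13, 0.24) or Atractylodis at 20 or 500 µg/mL (-0.08 and -0.14, 0.48 and 0.094). TXNRD2 shares part of its stretch of the genome with other annotated genes, and the strand setting of the counting is not given in the sources used here, so its level is uncertain.

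**Figure D2:**
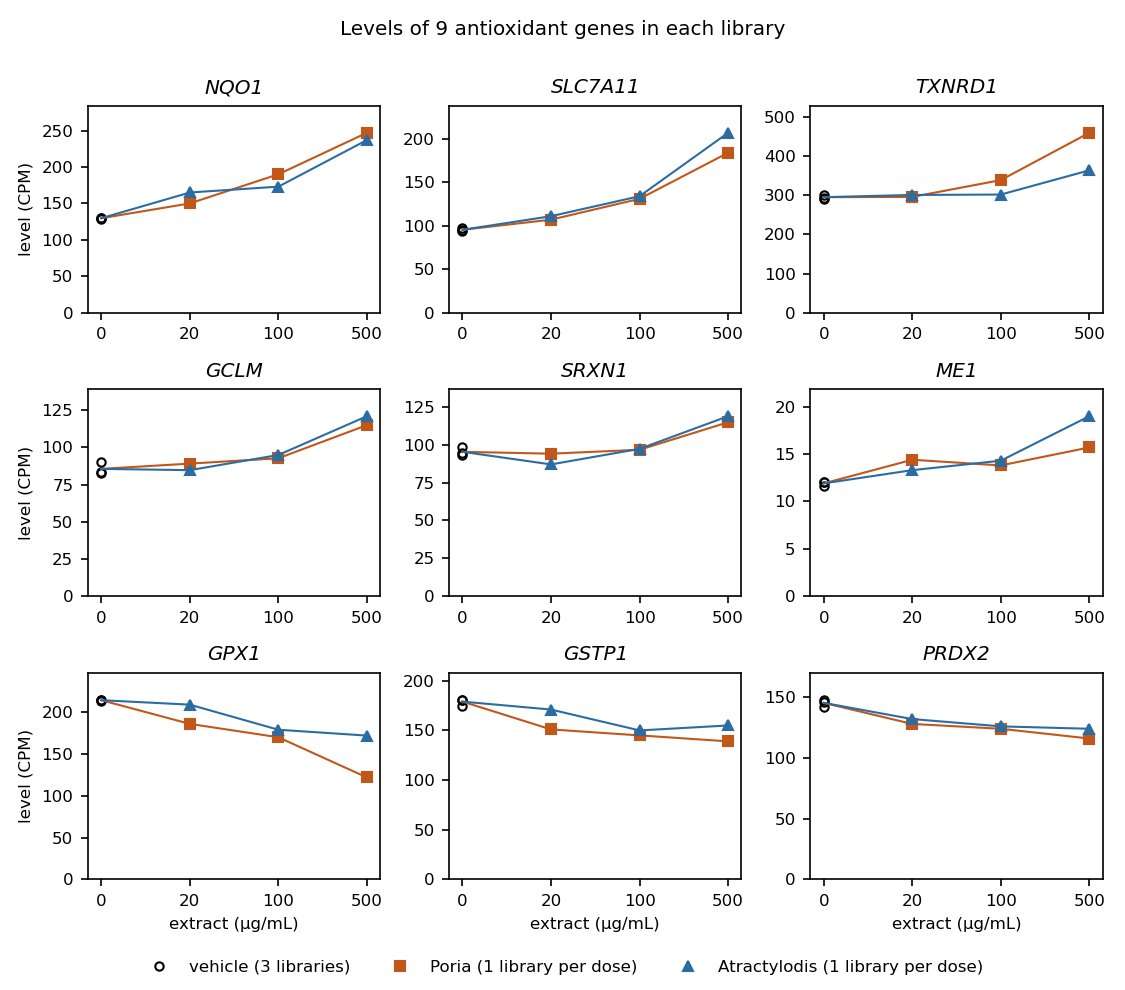
Levels in CPM (vertical axes from 0) of 9 genes are plotted against extract dose in µg/mL with the doses evenly spaced, circles for the 3 vehicle libraries, squares for Poria and triangles for Atractylodis, and each treated point is 1 library. NQO1 and SLC7A11 climb at every dose, GCLM, SRXN1 and TXNRD1 leave the vehicle level mainly at 500 µg/mL, and GPX1 drops to 122 CPM with Poria.

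Among the enzymes that make NADPH, ME1 and PGD rose within the treated libraries. ME1 (ENSG00000065833, chromosome 6, 83210389 to 83431071, minus strand), the cytosolic malic enzyme, was at 11.6, 12.0 and 12.1 CPM in vehicle. With Poria it was at 14.4, 13.8 and 15.7 CPM and with Atractylodis at 13.3, 14.3 and 19.0 CPM, so that every treated library lay above vehicle. The trends of ME1 were 0.13 ± 0.03 and 0.20 ± 0.03 (adjusted p = 0.0042 and 0.00051), its step was 0.34 ± 0.10 (0.018) and its slope within the treated libraries 0.16 ± 0.04 (0.0095). Its trend calls ended without the 500 µg/mL library of the same extract (0.14 and 0.12, adjusted p = 0.056 and 0.10). Its step call ended without any of the 3 vehicle libraries (0.32, 0.34 and 0.36, adjusted p = 0.081, 0.064 and 0.056) and with the GC correction (0.26, 0.058), and its slope call without either library at 500 µg/mL (0.10 and 0.08, 0.56 and 0.44).

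PGD, the second NADPH-producing enzyme of the pentose phosphate pathway, dipped before it rose. PGD was at 230, 228 and 225 CPM in vehicle, 217, 221 and 251 CPM with Poria and 222, 218 and 256 CPM with Atractylodis. The 4 libraries at 20 and 100 µg/mL lay below all vehicle libraries and those at 500 µg/mL above them. PGD had a slope of 0.11 ± 0.02 within the treated libraries (adjusted p = 0.0063) with trends of 0.04 ± 0.02 for each extract (0.24 and 0.18), and without either library at 500 µg/mL the slope call ended (0.07 and 0.04, 0.50 and 0.45). Without Atractylodis at 20 µg/mL the PGD slope was 0.17 (0.0031), and with the GC correction both trends passed (0.07 for each, 0.03 and 0.036). TKT, a transketolase of the non-oxidative branch, was at 574, 559 and 573 CPM in vehicle, 521, 554 and 666 CPM with Poria and 574, 515 and 590 CPM with Atractylodis. Its Poria slope within the treated libraries passed (0.18 ± 0.04, adjusted p = 0.034), and the mean slope of both extracts did not (0.10 ± 0.03, 0.057). TALDO1, the transaldolase of the same branch, was at 122, 127 and 119 CPM in vehicle, 113, 124 and 130 CPM with Poria and 130, 114 and 133 CPM with Atractylodis, and passed no comparison without the GC correction, with which both trends of TALDO1 passed (0.07 and 0.06, adjusted p = 0.018 and 0.033). IDH1, which makes NADPH from isocitrate, ranged from 42.2 to 45.2 CPM in vehicle and from 41.3 to 51.4 CPM in the treated libraries and passed none either.

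The other 3 NRF2-driven genes passed no comparison without the GC correction. With it EPHX1 passed within the treated libraries (0.08, adjusted p = 0.01). OSGIN1 and ABCC1 did not pass there (0.19 and 0.02, adjusted p = 0.19 and 0.43), in either trend or in the step. OSGIN1, an oxidative stress-induced growth inhibitor, was at 16.4, 17.2 and 16.4 CPM in vehicle, 14.7, 14.4 and 18.8 CPM with Poria and 16.3, 13.2 and 19.4 CPM with Atractylodis. It lay below vehicle in 4 libraries and above it at 500 µg/mL of either extract, with a slope of 0.16 ± 0.08 (adjusted p = 0.38), the widest error of the 40 genes. ABCC1, which exports glutathione conjugates, was at 150, 149 and 156 CPM in vehicle, 143, 140 and 145 CPM with Poria and 146, 147 and 149 CPM with Atractylodis. Of the treated libraries only Atractylodis at 500 µg/mL reached the vehicle range. EPHX1, which hydrolyses epoxides, was at 120, 115 and 117 CPM in vehicle, 108, 109 and 112 CPM with Poria and 111, 108 and 123 CPM with Atractylodis. EPHX1 shares its stretch of the genome with other genes that have 30.3% as many counts, and reads of the overlap could be split either way.

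The regulators changed little. NFE2L2 was at 81.6, 77.9 and 75.2 CPM in vehicle, 77.6, 76.4 and 81.0 CPM with Poria and 72.9, 76.8 and 77.9 CPM with Atractylodis. Of these treated libraries 5 lay inside the vehicle range, and NFE2L2 passed no comparison (slope within the treated libraries 0.04 ± 0.02, adjusted p = 0.32). KEAP1 was at 51.1, 54.1 and 53.4 CPM in vehicle, 51.1, 48.8 and 47.1 CPM with Poria and 56.5, 50.4 and 55.1 CPM with Atractylodis. KEAP1 fell with Poria by the trend test (-0.06 ± 0.02, adjusted p = 0.045), a call that ended under 8 alternatives, among them the GC correction (-0.02, 0.55) and leaving out Poria at 500 µg/mL (-0.06, 0.22) or vehicle replicate 2 (-0.06, 0.10). MAFG was at 57.9, 58.4 and 58.8 CPM in vehicle, 52.1, 54.6 and 63.4 CPM with Poria and 55.2, 53.0 and 65.2 CPM with Atractylodis. Like PGD it lay below vehicle at 20 and 100 µg/mL and above it at 500 µg/mL, and it rose within the treated libraries (0.13 ± 0.03, adjusted p = 0.0064). The MAFG call ended without either library at 500 µg/mL (0.10 and 0.04, adjusted p = 0.42 and 0.54) or without Poria at 20 µg/mL (0.17, 0.053), and without Atractylodis at 20 µg/mL the slope was 0.22 (0.0014). NFE2L2 overlaps AGPS and MAFG overlaps SIRT7, so part of their reads could belong to those genes.

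GPX1 (ENSG00000233276, chromosome 3, 49357171 to 49358600, minus strand), the selenium-dependent peroxidase that uses glutathione in the cytosol, was the member that fell furthest. GPX1 was at 215, 215 and 213 CPM in vehicle, 186, 170 and 122 CPM with Poria and 209, 179 and 172 CPM with Atractylodis. All treated libraries lay below vehicle, each dose below the one before, and Poria at 500 µg/mL stood at 0.568 of the vehicle mean. The trends were -0.25 ± 0.02 (adjusted p = 5.6e-06) for Poria and -0.12 ± 0.02 (0.0017) for Atractylodis, and the slope within the treated libraries was -0.22 ± 0.03 (0.00033). The Poria trend was steeper by 0.13 ± 0.02 per step (-0.13, adjusted p = 0.015). GPX1 and MGST3 were the 2 of 40 genes whose trends differed between the extracts, against 0.676% of all tested genes in the same direction and 0.485% in the other. GPX1 had the highest GC content of the 40 genes (64.2%). With the GC correction the Poria trend was -0.18 (adjusted p = 0.00098) and the slope within the treated libraries -0.18 (0.0058), whereas the Atractylodis trend (-0.07, 0.077) and the difference (-0.11, 0.057) no longer passed. The slope call within the treated libraries ended without Poria at 500 µg/mL (-0.14, 0.052) or Atractylodis at 20 µg/mL (-0.18, 0.11), and the difference without Poria (-0.07, 0.55) or Atractylodis (-0.12, 0.46) at 500 µg/mL.

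The other enzymes that remove peroxide and superoxide held their level or rose slightly with Atractylodis. GPX8, a peroxidase of the endoplasmic reticulum, stayed between 130 and 142 CPM in all 9 libraries, and CAT, the catalase of peroxisomes, between 33.2 and 38.8 CPM, and neither passed a test without the GC correction. With it GPX8 fell with Poria (-0.05, adjusted p = 0.024) and as a step (-0.11, 0.029). SOD1, the cytosolic superoxide dismutase, was at 111, 116 and 104 CPM in vehicle, 119, 121 and 113 CPM with Poria and 122, 119 and 131 CPM with Atractylodis. It rose with Atractylodis (0.07 ± 0.02, adjusted p = 0.025) and in the treated libraries as a whole (0.13 ± 0.04, 0.033; 0.20 and 0.002 with the GC correction). Both SOD1 calls ended without vehicle replicate 1 (0.07 and 0.13, adjusted p = 0.071 and 0.10) or 3 (0.05 and 0.09, 0.093 and 0.23). The first also ended without Atractylodis at 500 µg/mL (0.06, 0.32) and the second without Poria at 100 µg/mL (0.13, 0.056). SOD2, its mitochondrial counterpart, was at 107, 115 and 107 CPM in vehicle, 110, 112 and 114 CPM with Poria and 114, 116 and 125 CPM with Atractylodis, where it rose (0.06 ± 0.02, adjusted p = 0.022). With the GC correction the SOD2 trend was 0.01 (adjusted p = 0.67), without Atractylodis at 500 µg/mL it was 0.04 (0.38), and without vehicle replicate 1 or 3 it was 0.05 (0.079 and 0.076). SOD2 shares its stretch of the genome with WTAP, so reads of the overlap could be split either way.

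Among the glutathione transferases, which join glutathione to electrophiles, the direction depended on the gene. GSTP1 (ENSG00000084207, chromosome 11, 67583595 to 67586656, plus strand) was at 181, 181 and 175 CPM in vehicle, 151, 145 and 139 CPM with Poria and 171, 150 and 155 CPM with Atractylodis, all below vehicle. GSTP1 fell with both extracts (-0.13 ± 0.02 and -0.07 ± 0.02, adjusted p = 0.00031 and 0.013) and by -0.24 ± 0.05 as a step (0.002), and its slope within the treated libraries did not pass (-0.06 ± 0.02, 0.072). The Atractylodis call of GSTP1 ended with the GC correction (-0.03, 0.14) and without the 100 µg/mL library (-0.06, 0.063), and without the 500 µg/mL library the trend was -0.11 (0.045). GSTP1 has a GC content of 62.5%, and with the correction its Poria trend was -0.08 (0.0039) and its step -0.13 (0.011). GSTM3 was higher in every treated library, at 20.3, 21.8 and 21.5 CPM in vehicle, 23.3, 23.4 and 24.8 CPM with Poria and 23.5, 22.3 and 23.9 CPM with Atractylodis. Its step of 0.15 ± 0.05 passed (adjusted p = 0.028), but not without any of the vehicle libraries (0.12, 0.17 and 0.16, 0.18, 0.055 and 0.071) or with the GC correction (0.13, 0.061), and its Poria trend of 0.07 ± 0.02 (0.041) ended under 11 alternatives, for example without Poria at 500 µg/mL (0.07, 0.21). GSTO1, an omega-class transferase, was at 43.8, 47.5 and 45.2 CPM in vehicle, 44.6, 42.3 and 47.2 CPM with Poria and 48.2, 48.6 and 51.8 CPM with Atractylodis, where it rose (0.06 ± 0.02, adjusted p = 0.036). The GSTO1 call ended without the Atractylodis libraries at 100 or 500 µg/mL (0.07 and 0.06, adjusted p = 0.067 and 0.30) or vehicle replicate 1 or 3 (0.06 for each, 0.12 and 0.082).

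MGST3 and MGST1 encode transferases of intracellular membranes, and MGST3 differed between the extracts. MGST3 was at 40.7, 42.9 and 41.8 CPM in vehicle and at 38.7, 34.4 and 33.8 CPM with Poria, all below vehicle, but at 43.1, 40.7 and 43.4 CPM with Atractylodis, at the vehicle level. MGST3 fell with Poria (-0.11 ± 0.02, adjusted p = 0.00094), its Atractylodis trend was 0.01 ± 0.02 (0.75), and the trends differed (-0.12 ± 0.02, 0.012). The difference also passed with the GC correction (-0.13, 0.011) and ended without either library at 500 µg/mL (-0.14 and -0.11, 0.19 and 0.46). MGST1 was at 52.9, 48.9 and 46.4 CPM in vehicle, 50.8, 48.4 and 55.2 CPM with Poria and 53.0, 51.6 and 65.6 CPM with Atractylodis. MGST1 rose with Atractylodis (0.11 ± 0.03, adjusted p = 0.008), and this call ended without the 500 µg/mL library (0.04, 0.51) and with the GC correction (0.09, 0.056). The difference between the extracts was not past the threshold for MGST1 (-0.07 ± 0.03, adjusted p = 0.30).

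The glutaredoxins, which reduce glutathionylated proteins, overlap neighbours with more counts (RHOBTB3 and RO60), so their levels are uncertain. GLRX was at 38.0, 38.0 and 40.2 CPM in vehicle, 39.5, 40.3 and 37.0 CPM with Poria and 43.9, 42.7 and 45.6 CPM with Atractylodis, where it rose (0.07 ± 0.02, adjusted p = 0.024). The GLRX call ended without Atractylodis at 500 µg/mL (0.08, adjusted p = 0.18) or vehicle replicate 1 or 2 (0.06 for each, 0.085 and 0.077). GLRX2, the mitochondrial and nuclear form, was at 15.0, 14.9 and 15.0 CPM in vehicle, 17.6, 17.3 and 16.9 CPM with Poria and 18.3, 17.1 and 18.1 CPM with Atractylodis. All 6 treated libraries lay above vehicle with no order among the doses. The step of GLRX2 was 0.23 ± 0.05 (adjusted p = 0.0023), but with the GC correction it was 0.12 (0.11), and GLRX2 had the lowest GC content of the other 21 enzymes (35.7%).

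Most NRF2-driven genes had their highest levels at the top dose of both extracts. Both libraries at 500 µg/mL lay above the other 7 libraries for 12 of the 16 NRF2-driven genes, for MAFG, and for 2 of the 21 other enzymes (MGST1 and GSTM3), against 5.3% of all tested genes. They lay below the other 7 for 0 of 16 and for 2 of 21 (PRDX2 and GPX8), against 4.98%. This pattern was chosen after the values were seen. The 4 exceptions were PRDX1, TXN, ABCC1 and EPHX1. At 20 µg/mL the NRF2-driven PGD, OSGIN1, EPHX1, ABCC1, GCLC, SRXN1, GSR and PRDX1 and the regulators MAFG and NFE2L2 were below their vehicle mean with both extracts, at 0.879 to 0.999 of it. NQO1, SLC7A11, TXN, TXNRD1 and ME1 were above theirs with both. Several of the lower levels lay inside the vehicle range, for example PRDX1 at 392 and 385 CPM against 380 to 411 CPM. The lower genes were picked from the values, without a test and without a count over all tested genes.

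**Figure D3:**
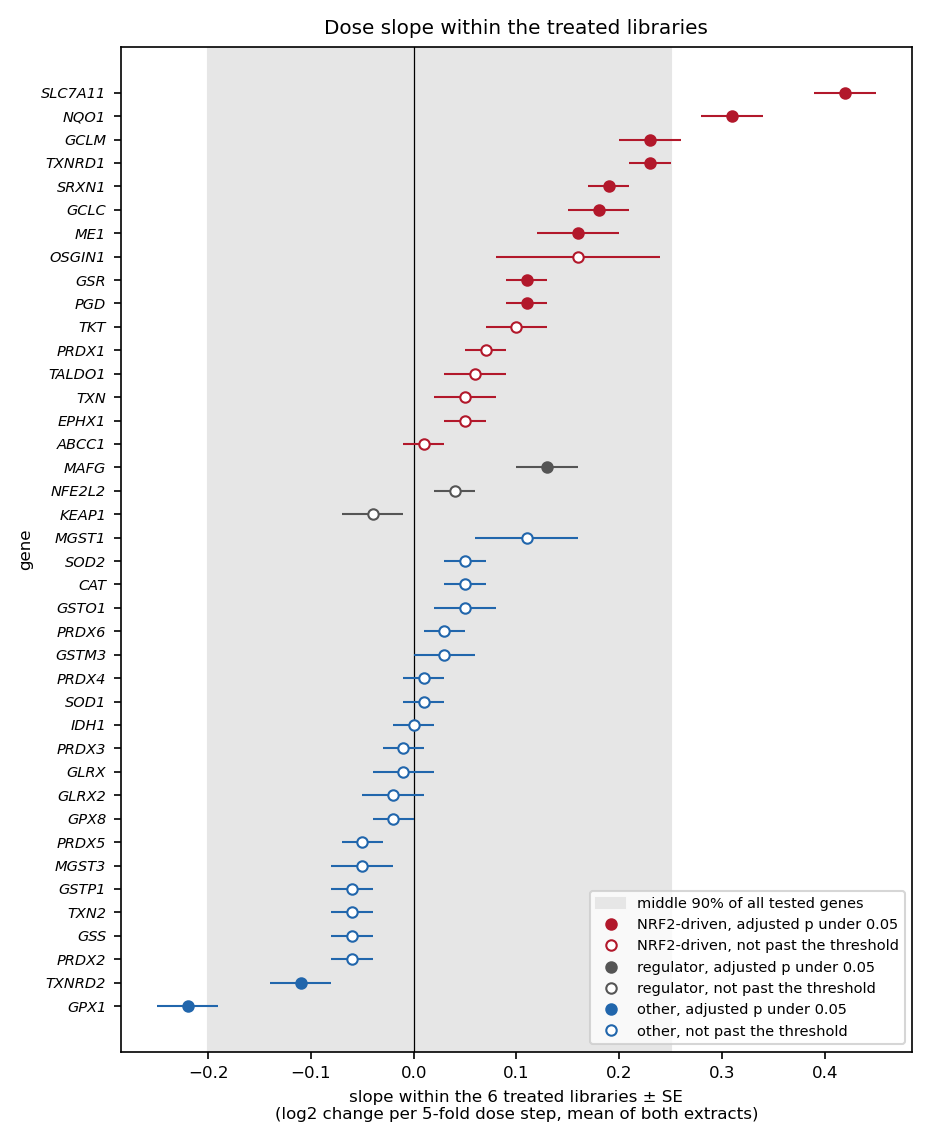
For each of the 40 genes the slope within the 6 treated libraries (log2 change per 5-fold dose step, mean of both extracts) is drawn with its SE, filled where the adjusted p was under 0.05, in red for NRF2-driven genes, grey for regulators and blue for others. The shaded band holds the middle 90% of all tested genes, -0.20 to 0.25; SLC7A11 and NQO1 lie above it and GPX1 below it, while the other called genes lie inside.

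GC content moved with the step between vehicle and treated libraries and with the slope within the treated libraries, where genes called higher had a median of 42.8% and genes called lower 56.7%. Values of single genes with the correction stand beside those without it. The NRF2-driven genes had a median GC content of 49.8% (35.4% to 63.4%), the other enzymes 45.6% (35.7% to 64.2%) and the regulators 57.2%. With the correction, 13 of the 16 NRF2-driven genes rose within the treated libraries and 0 fell, against 2.03% and 2.45% of all tested genes, and of the other 21 enzymes 0 rose and 1 fell. PRDX1, TALDO1, TKT and EPHX1 passed within the treated libraries with the correction and not without it (0.08, 0.09, 0.11 and 0.08, adjusted p = 0.0073, 0.019, 0.014 and 0.01). For the trends, 11 of 16 rose with Poria (6.85% of all tested genes) and 9 of 16 with Atractylodis (6.05%), and 0 fell with either. Of the other 21, 5 fell with Poria (8.55%) and 1 with Atractylodis (8.37%), in place of 7 and 4. Between treated and vehicle libraries 2 of 21 rose (PRDX4 and SOD1; 9.66%) and 4 fell (GSTP1, PRDX2, PRDX6 and GPX8; 11.8%), in place of 4 and 3 (13.3% of all tested genes fell without the correction).

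**Figure D4:**
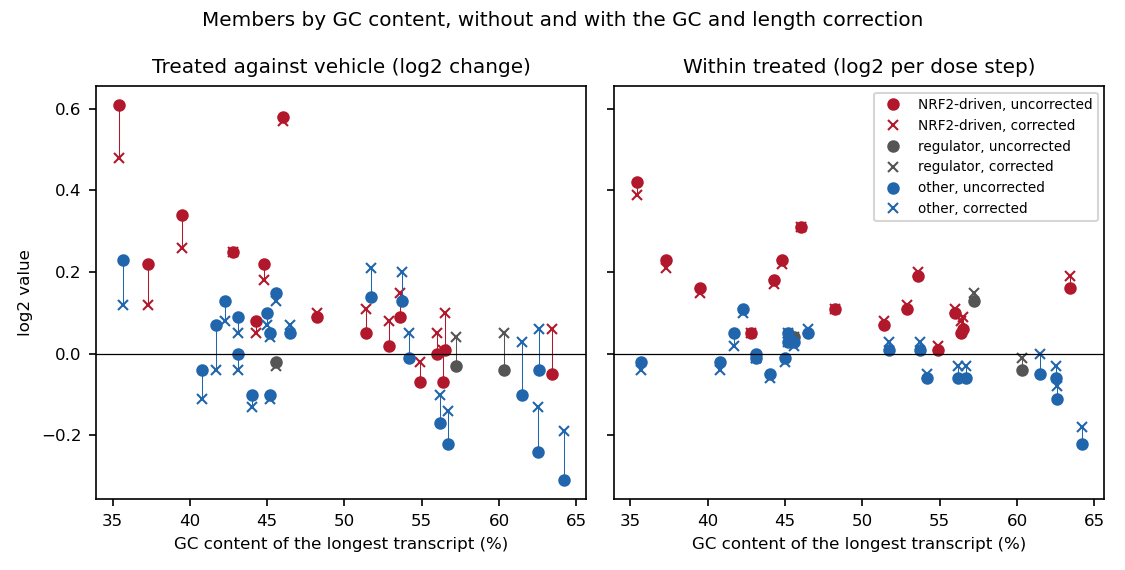
Each gene's log2 value is plotted against the GC content of its longest transcript (%), on the left for all treated against vehicle libraries and on the right for the slope within the treated libraries, with dots before and crosses after the correction and a line joining the pair. Corrections are larger on the left, where GPX1 at 64.2% moves from -0.31 to -0.19, than on the right, where it moves from -0.22 to -0.18.

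Other genes of the same systems were counted from 4 further lists. Of 23 further NRF2 targets, 11 rose with Poria (9.16% of all tested genes), 13 with Atractylodis (8.49%) and 8 within the treated libraries (2.3%), and 0 fell in any of these by edgeR (1, 0 and 0 at an unadjusted p under 0.05). DESeq2 with adjusted p called 1 lower with Poria and 0 in the others. Chosen by the smallest p in a trend, the genes named were the aldo-keto reductases AKR1B10, AKR1C3 and AKR1C2, with slopes within the treated libraries of 0.39 ± 0.05, 0.32 ± 0.04 and 0.31 ± 0.04 (adjusted p = 7.7e-05, 9.8e-05 and 0.00012), and PIR (0.14 ± 0.03, 0.017), an iron-binding nuclear protein. The AKR1C genes are close paralogs, so the split of counts between them is uncertain.

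The shares of all tested genes that rose and fell were 9.16% and 11.6% with Poria, 8.49% and 10.5% with Atractylodis, and 2.3% and 3.52% within the treated libraries, and the counts of the other 3 lists are read against them. Of 39 further glutathione and peroxide enzymes, 4 rose and 3 fell with Poria (10.3% and 7.69%), 6 rose and 4 fell with Atractylodis (15.4% and 10.3%), and 2 rose and 3 fell within the treated libraries (5.13% and 7.69%). With so few genes called, these shares are given as a description only. GPX4, the peroxidase for lipid hydroperoxides, fell with GPX1: it stood at 120 ± 3.15 CPM (SD, n = 3) in vehicle and 91.5 and 106 CPM at 500 µg/mL, with a slope within the treated libraries of -0.13 ± 0.02 (adjusted p = 0.0013). Of 13 further NADPH enzymes 2 rose and 1 fell with Poria (15.4% and 7.69%), 3 rose and 1 fell with Atractylodis (23.1% and 7.69%), and 0 passed within the treated libraries by edgeR or DESeq2 (1 higher and 2 lower at an unadjusted p under 0.05 in edgeR). NNT, the transhydrogenase of mitochondria, rose with both extracts (0.09 ± 0.02 and 0.07 ± 0.02, adjusted p = 0.0029 and 0.017). Of 11 further regulators tested, 1 rose and 2 fell with Poria (9.09% and 18.2%) and 2 rose and 1 fell with Atractylodis (18.2% and 9.09%). PGAM5, a phosphatase bound by KEAP1, fell with both (-0.12 ± 0.02 and -0.13 ± 0.02, 0.0013 and 0.001), and BACH1, the repressor that competes with NRF2 for its sites, rose with Atractylodis (0.08 ± 0.02, 0.027) and had a Poria trend of 0.06 ± 0.02 (0.091).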

How the data were processed

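RNA-seq libraries of 9 SW1783 samples were used: 3 vehicle and 6 treated, grouped by the sample titles. Per the labels' protocols, total RNA (integrity number over 7) was prepared with a directional MGIEasy kit and read as pairs of 100 bases. Per the submitters' processing notes, the tools named were FastQC 0.11.9, Trim Galore 0.6.5, STAR 2.7.3a and RSEM 1.3.3, with hg38 as the genome. Neither the annotation release nor the strand setting of the counting is given in the sources used here. What was deposited are expected counts per gene, estimated by the authors with RSEM per the submitters' processing notes. Expected counts were rounded to whole numbers here. The table has 60675 genes in 279 columns, of which 270 belong to other samples and were not used. GENCODE 29 and a gene name table gave a symbol to 57055 genes and GRCh38 positions, and all 40 members were matched.

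Genes were kept by filterByExpr (count minimum 10, total minimum 15), scaled by TMM and tested with edgeR 4.0.16 (R 4.3.3), with robust quasi-likelihood fits and Benjamini-Hochberg adjustment over the 18356 tested genes (42319 were not tested). The trend fit had 1 slope per extract over the steps 0, 1, 2 and 3 (6 residual degrees of freedom). The fit within the treated libraries added an offset per extract (4), and the step compared treated with vehicle libraries (7). The SE was taken as the log2 value over the square root of F. The scripts were tested on simulated data. With totals of 40269708 to 48905602 counts, counting error is small for genes at these levels, and the number of libraries limits the precision.

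Alternatives were DESeq2 1.42.0 (size factors and Wald test), no filter, a stricter filter (mean log2 CPM of at least 1), natural splines of GC content and transcript length as offsets (5 degrees of freedom; 142 tested genes without a value were not corrected), dose itself in place of the step, and each library left out. The members and lists were chosen with earlier results of these data known. By rule all 40 members were named, and genes outside them only from the 4 further lists, up to 4 per list by the smallest p in a trend. Some of those genes are not reported here. Promoter sequences are from RefSeq.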

Additional observations from a re-analysis of the deposited data

Results flagged for a closer look

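For 2 genes the trends of the extracts differed by the test of the difference itself. The MGST3 trend with Poria minus that with Atractylodis was -0.12 ± 0.02 (edgeR, adjusted p = 0.012), with 38.7, 34.4 and 33.8 CPM for Poria and 43.1, 40.7 and 43.4 CPM for Atractylodis at 20, 100 and 500 µg/mL, Poria being lower at each dose. For GPX1 the same difference was -0.13 ± 0.02 (adjusted p = 0.015), with Poria again lower at each dose. Both differences rest on 1 library per extract and dose, and each ended without either library at 500 µg/mL.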

How the results depend on the processing

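No call of a member changed direction under any alternative run. With dose itself in place of the step, 4 members rose and 1 fell with Poria (8 and 8 by the step), 5 rose and 0 fell with Atractylodis (15 and 4), 0 differed lower between the extracts (2), and 1 fell within the treated libraries (2). Over all tested genes 77 rose and 48 fell with Poria (1681 and 2134 by the step), and 41 and 26 with Atractylodis (1559 and 1936). There 32 differed lower (124), and 258 fell within the treated libraries (646). With the correction for GC content and length 5 fell with Poria, 1 fell with Atractylodis, 1 differed lower, 3 rose between vehicle and treated libraries (6), and 1 fell within the treated libraries. DESeq2's Wald test gave 1 lower within the treated libraries, and without a filter 1 difference was higher in place of 0. Over all tested genes these counts were 396 (646 by edgeR) and 254 (89 with the filter). The causes were not tested.

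Leaving out 1 library at a time gave 3 to 9 members higher and 6 to 8 lower with Poria, 2 to 17 higher and 3 to 4 lower with Atractylodis, 0 higher and 0 to 2 lower for the difference, 2 to 8 higher and 3 to 5 lower for treated against vehicle, and 3 to 14 higher and 0 to 6 lower within the treated libraries. Over all tested genes the ranges were 1068 to 1878 higher and 1474 to 2364 lower with Poria. They were 403 to 1965 and 632 to 2332 with Atractylodis, and 0 to 127 and 0 to 173 for the difference. For treated against vehicle they were 1291 to 2528 and 1695 to 2825, and within the treated libraries 26 to 607 and 42 to 900. The 0 differences were reached without either library at 500 µg/mL, where all tested genes gave 0 too. Members past the threshold under other settings were mostly small changes near it. DESeq2 gave no adjusted p for ME1 within the treated libraries, and the dose itself has no value for treated against vehicle. No paired analysis was possible because the treated groups share only replicate number 2 with the vehicle. With 1 library per condition, and p-values that rest on few libraries, small slopes were not detectable for every gene.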

Other observations

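TXNRD1 rose while TXNRD2 and GPX1 fell, and all 3 encode selenoproteins, enzymes with selenocysteine in place of a cysteine. A list of 25 selenoprotein genes, added after the values were seen and given as a description only, had 20 tested members. TXNRD1, TXNRD2 and GPX1, which prompted the list, are among them and are inside the counts that follow. Those counts therefore partly repeat the calls of these 3 genes. With Poria 4 of them rose and 5 fell (9.16% and 11.6% of all tested genes), with a median trend of -0.03. Within the treated libraries 2 rose and 4 fell (2.3% and 3.52% of all tested genes). SELENOW, a small muscle and brain selenoprotein, was at 65.1 ± 2.54 CPM (SD, n = 3) in vehicle, 64.2, 58.9 and 37.7 CPM with Poria and 72.8, 66.5 and 61.4 CPM with Atractylodis, and its Poria trend was -0.22 ± 0.05 (edgeR, adjusted p = 0.021). SELENON, of the endoplasmic reticulum, was at 299 ± 10.6 CPM (SD, n = 3) in vehicle and between 238 and 262 CPM in all 6 treated libraries. SELENOI, an enzyme of phospholipid synthesis, rose with Poria from 75.6 ± 0.521 CPM (SD, n = 3) to 77.6, 85.8 and 91.9 CPM (0.10 ± 0.02, adjusted p = 0.00066). With Atractylodis SELENOI rose too, to 76.1, 83.4 and 85.3 CPM (0.06 ± 0.02, 0.011), and the difference did not pass (0.03 ± 0.02, 0.48). DIO2, a thyroid hormone deiodinase, rose with Poria from 43.8 ± 0.885 CPM to 47.2, 50.5 and 58.2 CPM (0.12 ± 0.02, 0.00034). The difference between the extracts also passed for DIO2 (0.11 ± 0.02, adjusted p = 0.019), whose Atractylodis levels were 44.5, 47.3 and 43.8 CPM.

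TXNIP, which binds thioredoxin and sits in the list of further glutathione and peroxide enzymes, was at 10.3 ± 0.71 CPM (SD, n = 3) in vehicle, 217 CPM with Poria at 500 µg/mL and 6.35 CPM with Atractylodis at 500 µg/mL. It was named after its values were seen. HMOX1, a widely used NRF2 target outside the 40 genes and also named after its values were seen, stood at 86.8 ± 0.983 CPM (SD, n = 3) in vehicle, 105 CPM with Poria and 202 CPM with Atractylodis at 500 µg/mL, and passed neither trend (0.09 ± 0.12 and 0.35 ± 0.11, adjusted p = 0.65 and 0.075).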
